A study of Homo sapiens with 12 samples.

Results

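The 10 genes described here encode enzymes that make asparagine, serine, glycine and proline, or that carry the one-carbon units of serine through mitochondrial folate. They were chosen by name, as *ASNS*, *PHGDH*, *PSAT1*, *PSPH*, *SHMT1*, *SHMT2*, *MTHFD2*, *ALDH1L2*, *ALDH18A1* and *PYCR1*, and all 10 were among the 23292 gene symbols of the deposited RNAseq tables. RNA was measured in HEK293T cells, a derivative of the human embryonic kidney line HEK293 that carries SV40 large T antigen. The growth protocol in the labels names the cells HEK293. The cells were wild type and were treated for 6 h with vehicle (DMSO) or with 10 µM AA263, AA263yne or AA263-5, with 3 samples in each of the 4 groups. AA263 is a phenylhydrazone that activates ATF6, an arm of the unfolded protein response, and the other compounds are its analogs.

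The value used for each gene is the authors' mean normalized value, a single mean over all samples of values scaled for library size. This mean is the same in each of the 3 tables, and it pools vehicle and treated samples. It therefore carries no replicate error and no difference between compounds, and no effect of AA263, AA263yne or AA263-5 on these enzymes is given. The tables' other columns hold the authors' own comparisons and were not used. The depth of each sample is unknown from the values used, so no interval could be set around any level and no ordering of genes could be tested. The mean normalized values sum to 36.6 M over all genes, of which the 10 enzymes account for 0.210%.

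Asparagine synthetase, encoded by *ASNS*, transfers the amide nitrogen of glutamine to aspartate. Serine is made from a glycolytic intermediate by the successive action of the enzymes encoded by *PHGDH*, *PSAT1* and *PSPH*. Serine hydroxymethyltransferases then split serine into glycine and a one-carbon unit on folate, in the cytosol through *SHMT1* and in mitochondria mainly through *SHMT2*, after which the mitochondrial enzymes of *MTHFD2* and *ALDH1L2* oxidize that unit. Proline is made from glutamate by the products of *ALDH18A1* and *PYCR1*. Several of these genes are known targets of ATF4, the transcription factor of the integrated stress response, which acts through a composite C/EBP-ATF response element.

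That element is shown for *ASNS*, where it is best known. Promoter windows of RefSeq on GRCh38.p14, reaching from 250 bases before to 50 bases after a start site, were found for 6 of the 10 genes (*ASNS*, *PHGDH*, *PSAT1*, *SHMT1*, *MTHFD2* and *ALDH18A1*), as 7 windows in all. The letters TGATGNAA, searched on both strands, occurred in 1 of these 7 windows, against 3.62% of 35116 windows of the same length genome-wide. The match lies in an *ASNS* window, 68 to 61 bases before the start site on the sense strand. The stretch around it, at chr7:97872439-97872506 on the minus strand, is printed 5′ to 3′ with the match in capitals.
ASNS: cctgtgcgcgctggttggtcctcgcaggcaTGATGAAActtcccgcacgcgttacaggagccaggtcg
The ER stress element, CCAAT and CCACG with 9 bases between them, to which ATF6 binds, was found in 0 of the 7 windows and in 0.0769% of all windows. An absent match says only that these letters are not in this window.

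All 10 enzymes were well expressed. Genes whose mean normalized value was 10 or more numbered 15638. Their median was 571.4, and each of the 10 enzymes lay above it. In 7 of the 10 the value lay in the top 10% of these genes. The median over the 10 enzymes was 6979, within a range of 632 to 20150. GENCODE 44 names 17 pseudogenes after 5 of the enzymes (*ASNS*, *PSAT1*, *PSPH*, *SHMT1* and *MTHFD2*), 0 of which had a symbol in the tables; whether reads from such copies were assigned to these 5 genes was not tested, and their levels are uncertain to that extent. Long transcripts yield more reads than short ones, so levels were also divided by the length of the canonical GENCODE 44 transcript, in kilobases (kb), and comparisons between named genes rest on these values unless another scale is named. Per kb, the median of those of these genes with a length was 206 and that of the 10 enzymes 2501, again with each of the 10 above that median and with 6 in the top 10%.

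**Figure D1:**
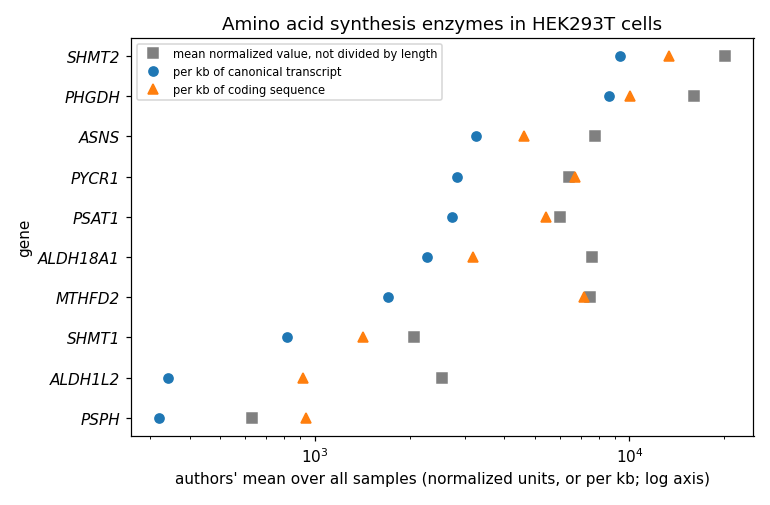
Levels of the 10 enzymes, pooled by the authors over all samples, on a log axis; each row is a gene, and the 3 markers are the mean normalized value, the same value per kb of canonical transcript and per kb of coding sequence. No error bars are drawn because the values used give no spread. *SHMT2* and *PHGDH* lie to the right of the other genes on each scale, and *PSPH* and *ALDH1L2* to the left on both scales per kb.

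*SHMT2*, on chromosome 12 of GRCh38 from 57229573 to 57234935, had the highest level of the 10 on each scale. Its mean normalized value was 20150, and 209 genes had a higher one. Per kb of its transcript of 2157 bases the level was 9342, higher than in 98.3% of genes. *SHMT1*, the cytosolic counterpart, lies on chromosome 17 from 18327860 to 18363563 and had a mean normalized value of 2064. Per kb its level was 817, so that the mitochondrial enzyme's mRNA was 11.4 times as abundant as the cytosolic one. The direction was the same for each length tried, with ratios down to 7.87.

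The serine pathway was uneven along its steps. *PHGDH*, which encodes the first and committed enzyme, lies on chromosome 1 from 119648411 to 119744218 and had a mean normalized value of 16042 and a level per kb of 8597. *PSAT1*, for the aminotransferase of the next step, on chromosome 9 from 78297125 to 78330093, stood at 6031 and 2734 on the same scales. *PSPH*, for the phosphatase that releases serine, on chromosome 7 from 56011051 to 56051604, stood at 632 and 320. Levels per kb thus descended in the order of the reactions, with *PHGDH* at 3.14 times *PSAT1* (1.85 times per kb of coding sequence) and 26.9 times *PSPH*. This order held on each scale used, and the gap between *PHGDH* and *PSPH* was smallest per kb of coding sequence, at 10.7 times. *PSPH* was still above the median gene, with a level per kb higher than in 59.3% of genes.

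*ASNS*, on chromosome 7 from 97851677 to 97872542 and with a canonical transcript of 13 exons, had a mean normalized value of 7777. Its level per kb was 3261, the third highest of the 10 and higher than in 94.2% of genes. Per kb of coding sequence it came sixth, at 4621, behind *MTHFD2*, *PYCR1* and *PSAT1*, which it preceded per kb of transcript. Its place among these genes therefore depends on the length used. Of the 6 other asparagine and glutamine genes examined, the highest per kb was *GOT2*, the mitochondrial aspartate aminotransferase, at 3721, while per kb of coding sequence and without division it was *GLUL*, the glutamine synthetase gene, at 8624 and 9650. The lowest was *ASPG*, an asparaginase gene, with a mean normalized value of 4.40.

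Of the mitochondrial folate genes, *MTHFD2*, a dehydrogenase and cyclohydrolase gene on chromosome 2 from 74186172 to 74217565, had a mean normalized value of 7518 and a level per kb of 1707. *ALDH1L2*, a formyltetrahydrofolate dehydrogenase gene on chromosome 12 from 105019784 to 105107643, stood at 2539 and 342. Both have long transcripts, of 4403 and 7428 bases, of which 1050 and 2769 are coding. *MTHFD2* consequently moved from seventh of the 10 per kb of transcript to the third place per kb of coding sequence, where its level was 7160.

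Against related enzymes, *ALDH1L2* stood far above its cytosolic counterpart *ALDH1L1*, which had a mean normalized value of only 13.4. The ratio per kb was 78.3, and it reached 190 without division by length. *MTHFD2* exceeded *MTHFD2L*, its mitochondrial paralog, 6.20 times per kb of transcript and 11.5 times per kb of coding sequence. It lay below *MTHFD1*, which encodes the trifunctional cytosolic enzyme, with a ratio of 0.363. The ratio was 0.531 per kb of the longest transcript and 0.507 without division. Only per kb of coding sequence did *MTHFD2* lie above *MTHFD1*, with 1.36. Coding bases make up 1050 of 4403 in the *MTHFD2* transcript and 2805 of 3154 in that of *MTHFD1*. The order of *MTHFD2* and *MTHFD1* therefore depends on the length used. Over the 10 other folate genes examined, levels per kb ran from 4.36 for *ALDH1L1* to 4699 for *MTHFD1*, with a median of 767.

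**Figure D2:**
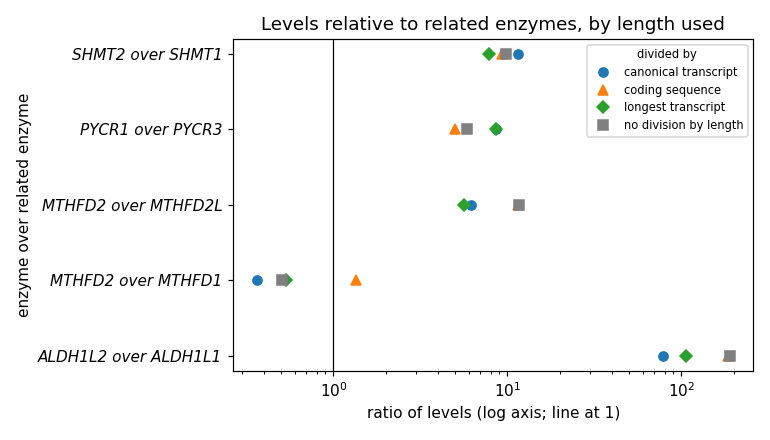
Ratio of the level of each enzyme to that of a related enzyme, on a log axis with a line at 1; each row is a pair, and the 4 markers are ratios of values divided by canonical transcript, coding sequence or longest transcript, or not divided. *SHMT2*, *ALDH1L2* and *MTHFD2* (against *MTHFD2L*) and *PYCR1* (against *PYCR3*) lie right of the line for all 4 markers, and the markers of *MTHFD2* over *MTHFD1* fall on both sides of it.

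Of the genes of proline synthesis, *ALDH18A1*, which encodes the bifunctional synthase of the first steps, lies on chromosome 10 from 95605941 to 95656711 and had a mean normalized value of 7605, or 2269 per kb. *PYCR1*, for a mitochondrial reductase of the last step, lies on chromosome 17 from 81932384 to 81942412 and had a mean normalized value of 6440, or 2838 per kb. The ratio of *ALDH18A1* to *PYCR1* was 0.799 per kb of canonical transcript, 0.474 per kb of coding sequence and 1.18 without division, so that their order depends on the scale. The related reductase gene *PYCR3* (listed under its older symbol *PYCRL*) stood at 330 per kb, and *PYCR1* was 8.59 times as high (5.01 times per kb of coding sequence). *PRODH*, which encodes proline dehydrogenase, the first enzyme of proline breakdown, was the lowest of the 5 other proline genes examined, with 20.3 per kb. *OAT*, for ornithine aminotransferase, was the highest of them, with 2040 per kb.

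**Figure D3:**
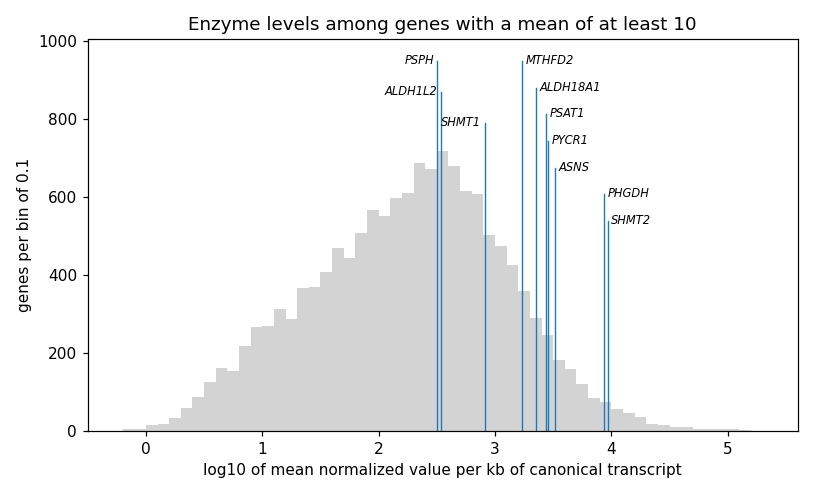
Number of genes at each level, as the log10 of the mean normalized value per kb of canonical transcript, for the 14031 genes that have a transcript length and whose mean normalized value was 10 or more; blue lines mark the 10 enzymes. *PSPH* and *ALDH1L2* stand near the peak of the distribution, *SHMT1* and *MTHFD2* on its falling side, and the other 6 enzymes in the top 10% of genes.

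Over the 7 genes examined that use serine or break glycine down, the median level per kb was 235, and 4 of the 7 lay above 206, the median of genes whose mean normalized value was 10 or more, a minimum that *SDS* did not reach. *CBS*, for the enzyme that joins serine with homocysteine, was the highest with 1965 per kb, and *SDS*, for serine dehydratase, the lowest, with a mean normalized value of 0.414. These lists were written with results of the series known, and the counts describe the genes named without a test.

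The label of the cells was compared with marker genes. Of 5 genes known from HEK293 cells, *VIM*, *NEFM*, *KRT18* and *KRT8* lay above the median gene per kb, at 834 to 8726, while *PAX2* was low, at 6.62 per kb. *PTPRC*, *ALB* and *CD3E*, which mark blood, liver and T cells, had mean normalized values of at most 1.30. *COL1A1*, a fibroblast gene, had 397, and *MYH6*, a heart gene, was not among the symbols.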

How the data were processed

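Poly(A) RNA of 12 HEK293T samples was sequenced as strand-specific libraries per the labels, while the methods describe whole transcriptome RNA. The authors aligned reads to GRCh38.p7 with DNAstar SeqManPro, quantified them with ArrayStar and QSeq, and fitted DESeq2 (1.40.1 in the submitters' processing notes). Each deposited signal is the authors' mean over all samples of values divided by size factors. The methods name RPKM as the input of that fit. The values used sum to 36.6 M over all genes and reach 779069, the scale of read counts, and they were treated as not yet divided by length. Had the signal already been per length, the undivided values would be the ones to compare. The tables also hold the authors' log2 fold changes, standard errors, Wald statistics and p-values, which were not used. In 23 rows the symbol had become a date or number.

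Values were divided by the exon length of the canonical GENCODE 44 transcript, matched by symbol or by RefSeq synonym for 14031 of 15638 genes (89.7%) whose mean normalized value was 10 or more. Percentiles give the share of these genes with a lower value. Replicates could not be compared, and no test was made. Named genes are the 10 enzymes, the related enzymes, and the highest and lowest of each list. Not every gene of these pathways is reported here. Members and lists were chosen with earlier results of these data known. The percentile and motif steps were tested on simulated data. Python 3.11.15 and pandas 2.3.3 were used.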

Additional observations from a re-analysis of the deposited data

How the results depend on the processing

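The length by which a value was divided was the choice that mattered. The main ratios, per kb of canonical transcript, were 11.4 for *SHMT2* over *SHMT1*, 8.59 for *PYCR1* over *PYCR3*, 6.20 for *MTHFD2* over *MTHFD2L*, 0.363 for *MTHFD2* over *MTHFD1* and 78.3 for *ALDH1L2* over *ALDH1L1*. Per kb of coding sequence of the canonical transcript, in the same order, they were 9.35, 5.01, 11.5, 1.36 and 186. This alternative was chosen after seeing the data, in place of a planned division by RefSeq protein length, which was not run. Per kb of the longest transcript they were 7.87, 8.59, 5.67, 0.531 and 107. Without division they were 9.76, 5.83, 11.6, 0.507 and 190. The order was reversed in 1 of these ratios, *MTHFD2* over *MTHFD1* with coding sequence. Among the 10 enzymes, 5 changed place per kb of coding sequence, 6 without division and 0 with the longest transcript. The mean normalized values were the same in the 3 tables. Over all symbols above 0 the percentiles of the enzymes were higher, with *PSPH* at 67.7 in place of 52.0. No paired analysis was possible because the values used carry no replicate numbers, and no replicate could be left out. Without values per sample, depth and replicate spread set no limit that could be stated here.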
